A study of Bos taurus with 8 samples.

Results

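miR-101, miR-26a and miR-26b are 3 microRNAs (miRNAs) long known to repress EZH2, and they were taken here by name, as the array entries bta-miR-101, bta-miR-26a and bta-miR-26b. They are 3 of the 763 bovine miRNAs on the array. Their levels were read in mammary tissue of 8 heifers, 4 Holstein-Friesian, a dairy breed and the reference of the design, and 4 Limousin, a beef breed and the test. All animals were non-pregnant and free of clinical mastitis, and the labels name no treatment. The characteristics state that they were 20 months old and the protocol that they were 2 years old. The labels give the tissue as udder, taken after slaughter. Each heifer had its own one-colour Agilent array, so n = 4 per breed throughout, and differences are Limousin minus Holstein-Friesian.

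EZH2 is the catalytic subunit of a Polycomb complex that methylates histone H3 and so silences genes, and BMI1 and SUZ12 are other Polycomb proteins. A miRNA guides a silencing complex to messenger RNAs that pair with the seed, a short stretch near its 5′ end, and lowers their translation and stability. In tumours, loss of miR-101 is known to release EZH2. The miR-26 genes lie in introns of genes for small phosphatases, and in goat mammary epithelium miR-26a and miR-26b are known to influence milk fat genes. In the mouse mammary gland EZH2 takes part in the expansion of alveolar progenitors. The array measures miRNAs only, so neither EZH2 nor any other target was measured here.

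The stretches that the probes read show how well the members can be told apart, and they are given for the longer of the 2 probes of each, as the reverse complement of the probe sequence on the array, 5′ to 3′ with T for U. Capitals mark the bases that differ between miR-26a and miR-26b.
miR-101: acagtactgtgataactgaa
miR-26a: aatCcaggataggCt
miR-26b: caagtaatTcaggataggTt
Over the 15 positions that both miR-26 probes cover, 13 are the same and 2 differ, G2A and G12A from the miR-26a to the miR-26b probe, counted from 1 at the probe's 5′ end. No other miRNA on the array shared a longer run of bases with a miR-26 probe than this pair did with each other, 9 bases. How much of one signal came from the other RNA was not tested. The longest run that a miR-101 probe shared with another entry was also 9 bases, with miR-503-5p.

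The miR-101 and miR-26b probes shown are both 20 bases long with 35% GC, while the miR-26a probe has 15 bases and 46.7% GC. The shorter probe of each miRNA lacks the last base of the longer one. The array annotation places the 20-base miR-101 probe at chr3:80666468-80666487 and, in reverse order, at chr8:39940881-39940900 in UMD 3.1. It places the 15-base miR-26a probe at chr22:11457922-11457936 and chr5:55977943-55977957, and the 20-base miR-26b probe at chr2:107133411-107133429, a listed span of 19 bases. A signal of miR-101 or miR-26a cannot be assigned to either of its 2 positions. In the RefSeq table of the ARS-UCD2.0 assembly, MIR101-2 lies within RCL1, MIR26A-1 within CTDSPL, MIR26A-2 within CTDSP2 and MIR26B within CTDSP1. MIR101-1 lies within no protein-coding gene.

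The array also has an entry miR-26c, shown because its probe carries the sense bases of miR-26a, with the 13 bases identical to the miR-26a stretch in capitals.
miR-26c: ttcaagtAATCCAGGATAGG
The probe therefore reads an RNA complementary to miR-26a, and the annotation places it at chr22:11457955-11457974 and chr22:11464152-11464171 in UMD 3.1, in reverse order. It was well above background on 0 of 8 arrays, with background-corrected signals from -2.12 to 0.49 before scaling. No signal of the complement was thus detectable beside that of miR-26a.

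All 8 arrays lay on 1 slide with 1 scan time, and the first position index on the slide was the same for all arrays of a breed, so an effect of position cannot be told apart from one of breed. Limousin arrays were brighter. The 75th percentile of the probes detected on all arrays, by which each array was scaled, was 557 to 939 in Holstein-Friesian and 943 to 1579 in Limousin, and 243 to 267 against 272 to 297 miRNAs were detected. Of 270 miRNAs tested, 37 were higher and 76 lower in Limousin, 41.9% in all (limma, Benjamini-Hochberg adjusted p under 0.05). The split depends on the scaling: 104 were higher and 30 lower with the percentile taken over all probes, 55 and 43 with quantile normalization, 40 and 59 with median scaling, 45 and 59 with cyclic loess, 81 and 28 in the authors' value table, and 173 and 2 with none. The count was 71 without Limousin replicate 1 and 74 without Holstein-Friesian replicate 4, but 150 of 276 without Holstein-Friesian replicate 2. With 4 arrays a breed, the count thus moved both ways as single arrays were left out.

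All 3 members were strongly measured in both breeds. Every one of the 30 spots of each of their 6 probes was well above background on all 8 arrays. The coefficient of variation between spots of a probe on an array was between 1.90% and 12.1%. Of the 3, miR-101 was higher in Limousin, while miR-26a and miR-26b had positive differences that did not pass the test. A call for 1 of 3 is not set apart from the background, since 41.9% of all miRNAs tested were called and 13.7% were higher.

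miR-101 had a scaled log2 signal of 9.21, 9.50, 9.81 and 9.47 in Holstein-Friesian replicates 1 to 4. In Limousin replicates 1 to 4 it was 10.36, 10.14, 10.13 and 10.38. The breeds did not overlap: the lowest Limousin array lay 0.33 above the highest Holstein-Friesian array, replicate 3, and Holstein-Friesian replicate 1 was the lowest of all. The mean was 9.50 ± 0.25 (SD, n = 4) in Holstein-Friesian and 10.25 ± 0.13 (SD, n = 4) in Limousin. The log2 difference was 0.76 (SE 0.14), which is 1.69-fold higher in Limousin (95% confidence interval 1.36 to 2.10; limma adjusted p = 0.00363). It ranked at position 11 of 270 from the most positive difference, between miR-132 at 0.78 and miR-194 at 0.72. Of these neighbours, miR-132 was above background on 1 of 4 Holstein-Friesian arrays. In bulk tissue a change in the number of cells of a type and a change in the RNA per cell cannot be told apart.

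miR-26a, with 13.38, 13.16, 13.57 and 13.39 in Holstein-Friesian replicates 1 to 4, read 13.69, 13.62, 13.74 and 13.66 in the Limousin ones. The arrays of the breeds did not overlap here either, though the gap between them was only 0.058. Limousin arrays lay close together, with an SD of 0.048 against 0.17 in Holstein-Friesian (n = 4 each). The log2 difference of 0.31 (SE 0.11) did not pass (1.24-fold, 95% confidence interval 1.04 to 1.48; limma adjusted p = 0.0546). It passed without Holstein-Friesian replicate 3 (0.37; adjusted p = 0.031) and in 11 of 25 alternatives in all. The gap counts for little by itself, since 15.9% of the tested miRNAs had all Limousin arrays above all Holstein-Friesian ones.

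miR-26b read 11.84, 11.84, 12.12 and 11.94 in Holstein-Friesian replicates 1 to 4 and 12.27, 12.08, 12.10 and 12.38 in Limousin replicates 1 to 4. The breeds overlapped, because Holstein-Friesian replicate 3 was above Limousin replicates 2 and 3. Its log2 difference of 0.27 (SE 0.12) did not pass (1.21-fold, 95% confidence interval 1.00 to 1.45; limma adjusted p = 0.0936), and it passed in 7 of 25 alternatives. By rank of difference miR-26a and miR-26b stood at positions 53 and 57 of 270. Their neighbours were miR-374a at 0.31, miR-1940 at 0.30, miR-107 at 0.29 and miR-1, a muscle miRNA, at 0.26, none of which passed. miR-1940 and miR-1 were above background on 2 of 4 Holstein-Friesian arrays. On all 3 members Holstein-Friesian replicate 3 was the highest array of its breed.

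**Figure D1:**
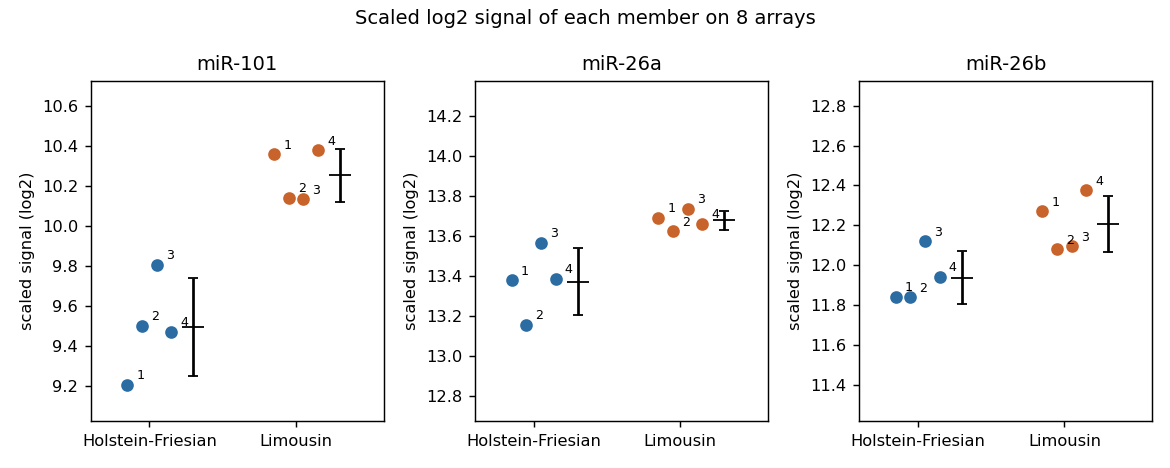
Scaled log2 signal of miR-101, miR-26a and miR-26b on each array, with replicate numbers beside the points and the mean ± SD (n = 4) as a black bar; the 3 panels span the same number of log2 units around different centres. All 4 Limousin arrays lie above all Holstein-Friesian arrays for miR-101 and, narrowly, for miR-26a, and the breeds overlap for miR-26b.

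The 2 probes of each member gave like differences. In a fit over all 495 detected probes, of which 40.2% were called and 13.7% were higher in Limousin, the 19-base and 20-base probes of miR-101 differed by 0.73 and 0.76 on the log2 scale (limma adjusted p = 0.00389 and 0.00371). The 14-base and 15-base probes of miR-26a were at 0.29 and 0.31, and the 19-base and 20-base probes of miR-26b at 0.24 and 0.27, with limma adjusted p from 0.0569 to 0.115. Over the 8 arrays, deviations from the breed mean correlated between the 2 probes of a miRNA with r = 0.99 for miR-101, 0.92 for miR-26a and 0.97 for miR-26b. The log2 ratio of the longer to the shorter probe moved by 0.030, 0.021 and 0.029 between the breeds, in the same order, which did not pass (two-sided exact permutation test, adjusted p = 0.471, 0.686 and 0.471 over 3 tests). Probes of one miRNA share nearly all of their sequence and are not replicates.

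Whether the members moved by unequal amounts was asked within each array, since the ratio of 2 miRNAs on one array does not change with a constant scaling of that array. Only the change of the ratio between breeds is read, because the level of one probe against another has no meaning. miR-101 rose relative to both miR-26 members, but its rise over miR-26a was lost after a correction for probe composition, given below. The log2 ratio of miR-101 to miR-26b was -2.64, -2.34, -2.32 and -2.47 in Holstein-Friesian replicates 1 to 4 and -1.91, -1.94, -1.96 and -1.998 in the Limousin ones. The breeds were well apart, and the Limousin SD was only 0.036 against 0.15 (n = 4 each). The ratio was 0.49 higher in Limousin, with shifts of 0.32 to 0.72 not rejected by the exact test (two-sided exact permutation p = 0.0286, the smallest that 70 splits allow; adjusted p = 0.0429 over 3 pairs).

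For miR-101 against miR-26a the log2 ratio ran from -4.17 to -3.66 in Holstein-Friesian and from -3.60 to -3.28 in Limousin, again with no overlap. It was 0.45 higher in Limousin (0.052 to 0.89; exact permutation p = 0.0286, adjusted p = 0.0429). The ratio of miR-26a to miR-26b ran from 1.32 to 1.54 and from 1.29 to 1.64, and the breeds overlapped. Its difference was 0.037, with shifts from -0.25 to 0.32 not rejected (exact permutation p = 0.743, adjusted p = 0.743). This interval leaves room for unequal change of the 2 miR-26 members of up to about that size.

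Both contrasts of miR-101 missed the threshold without background subtraction, at 0.36 against miR-26a and 0.41 against miR-26b, and with the mean of both probes, at 0.45 and 0.49 (exact permutation adjusted p = 0.0857 in each case). With 1 Limousin array or Holstein-Friesian replicate 1 left out they also missed it, at 0.35 to 0.51 and 0.42 to 0.50. With 7 arrays a complete separation of the breeds need not pass this test.

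**Figure D2:**
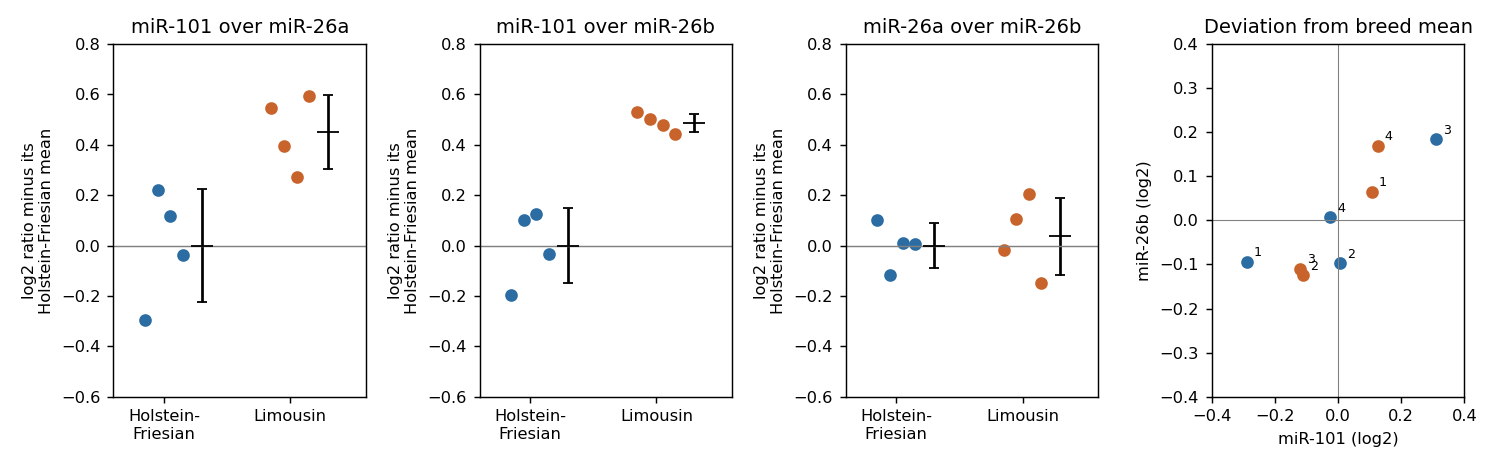
The first 3 panels show the log2 ratio of a pair of members on each array, set to 0 at its Holstein-Friesian mean, with the mean ± SD (n = 4) as a black bar; the last panel plots the deviation of miR-26b from its breed mean against that of miR-101, with replicate numbers and Holstein-Friesian arrays in blue and Limousin arrays in orange. Without correction for probe composition, the ratios of miR-101 to miR-26a and miR-26b are 0.45 and 0.49 higher in Limousin with no overlap, and the ratio of the miR-26 members overlaps.

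Probe composition bears on the 3 members unequally. A linear correction of each array for the GC content and length of the probes took miR-101 from 0.76 to 0.50 (limma adjusted p = 0.00588), miR-26b from 0.27 to 0.014 (adjusted p = 0.942) and miR-26a from 0.31 up to 0.60 (adjusted p = 0.00274). The contrast of miR-101 with miR-26b stayed at 0.49, because their probes have the same length and GC content. The contrast with miR-26a turned to -0.10 (exact permutation adjusted p = 0.0571), and that of miR-26a with miR-26b became 0.59 (adjusted p = 0.0429). The correction could not change the contrast of miR-101 with miR-26b, so it is no check of that contrast. How the difference of miR-26a stands to those of miR-101 and miR-26b depends on the correction.

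The sign of all 3 members stayed positive in each of the 25 alternatives, though miR-26b was at only 0.014 after the GC and length correction. In the fit over probes with that correction the 2 miR-26b probes were at -0.016 and -0.036. miR-101 passed in 25 of 25, with log2 differences from 0.50 to 1.61. Since the scaling shifts all miRNAs together, the difference was also set against the median of all tested miRNAs, which was -0.069 as reported and 0.78 without scaling. Relative to that median miR-101 was at 0.83 in both cases, miR-26a at 0.37 and miR-26b at 0.34. Scaling an array by a constant cannot change such a relative value, here or below, so the match is no check. Over all alternatives this relative difference ran from 0.50 to 1.08 for miR-101, from 0.053 to 0.74 for miR-26a and from 0.017 to 0.69 for miR-26b.

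**Figure D3:**
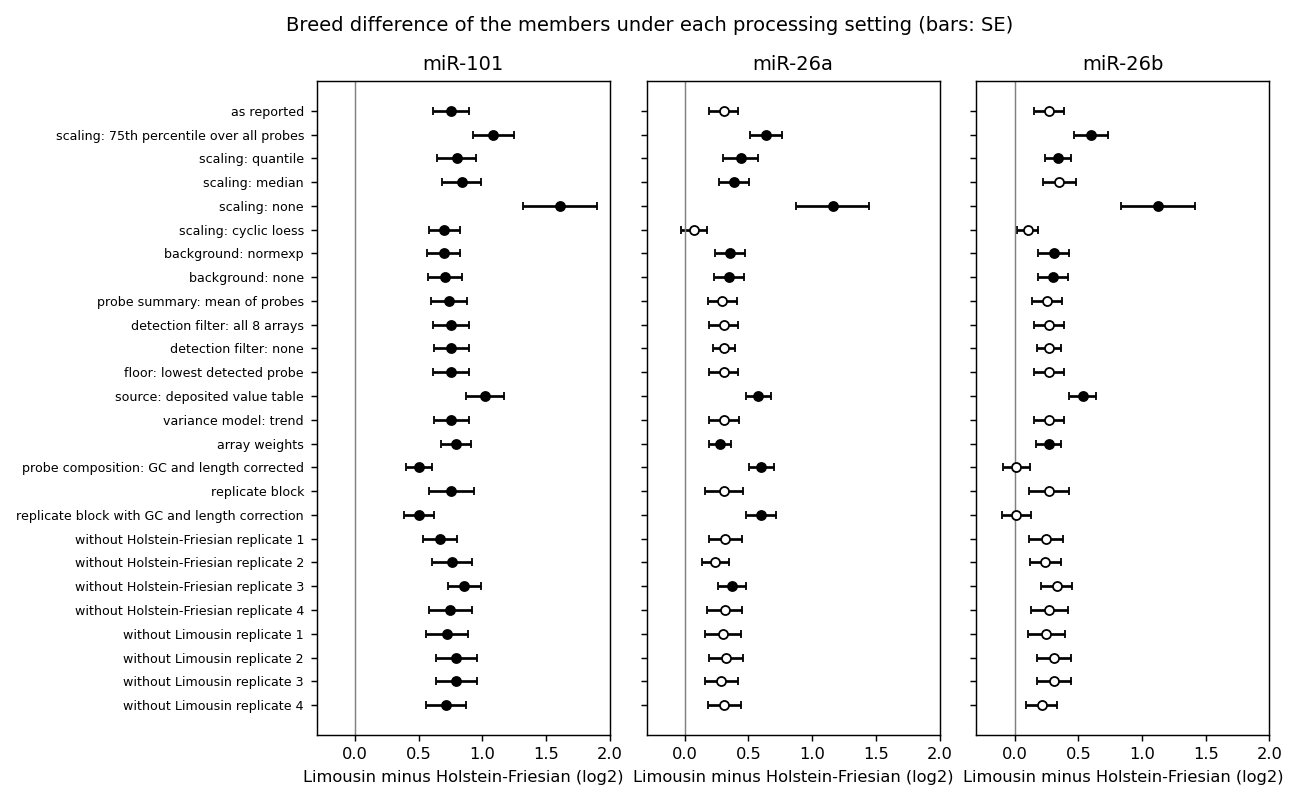
Log2 difference between breeds of each member under each processing setting, with bars of 1 SE; filled points have an adjusted p under 0.05 and open points do not. miR-101 is filled in all rows, miR-26a is filled in 11 and miR-26b in 7 of the 25 alternatives, and all points lie above 0.

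Within breeds, miR-101 and miR-26b moved from animal to animal in a similar way, but the relation did not pass. Deviations from the breed mean of these 2 correlated with Pearson's r = 0.85 and Spearman's rho = 0.79 over 8 arrays (exact permutation within breeds, p = 0.0243 and 0.0521; adjusted over 3 pairs 0.0729 and 0.156). Without the 2 arrays farthest from the median of miR-101, r was 0.89. For miR-101 with miR-26a, r was 0.37 and rho 0.14 (exact permutation p = 0.609 and 0.788; adjusted 0.609 and 0.788), and r was -0.077 without 2 arrays and -0.38 without Holstein-Friesian replicate 3. For miR-26a with miR-26b, r was 0.54 and rho 0.43 (exact permutation p = 0.198 and 0.29; adjusted 0.297 and 0.435), and r was -0.089 without 2 arrays. Neither relation of miR-26a passed. In both, r was slightly negative without the 2 arrays farthest from the median of the first member named. Arrays share their scaling factor over all miRNAs, and without scaling the 3 values of r were 0.97, 0.91 and 0.95 in that order. Over the alternatives, r of miR-101 and miR-26b ran from 0.62 to 0.97. The probes of miR-101 and miR-26b have the same length and GC content, and that of miR-26a differs in both. What part probe composition had in these relations was not tested.

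The miRNAs whose deviations from the breed mean were most like those of miR-101 over the 8 arrays were miR-142-5p (r = 0.96), miR-146b (0.96), miR-335 (0.94), miR-411a (0.93) and miR-376b (0.92). The first is a blood cell miRNA, and miR-146b is induced in inflammation. Of these, miR-142-5p, miR-146b and miR-376b were higher in Limousin, by 0.56, 0.94 and 0.50 on the log2 scale (limma adjusted p = 0.0223, 0.00121 and 0.0213), while miR-335 at 0.59 and miR-411a at 0.24 did not pass (adjusted p = 0.275 and 0.131). miR-335 was above background on 1 of 4 Holstein-Friesian arrays. The likeness is taken over the same 8 arrays for 269 other miRNAs, of which 2.97% had an r above 0.9, and it carries no test. The probes of miR-142-5p and miR-376b have 20 bases and 35% GC, as that of miR-101 has, and those of the others differ. What part probe composition had in the likeness, here or below, was not tested.

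miR-26b was most like miR-126-3p, an endothelial miRNA (0.96), then miR-29d (0.94), miR-2474 (0.94), miR-29c (0.92) and miR-376e (0.90). Those closest to miR-26a were less like it: miR-29a (0.91), miR-132 (0.89), miR-150 (0.85), miR-1249 (0.84) and miR-23b-3p (0.80). Members of the collagen-repressing miR-29 family stood in both sets, which were picked by the highest r over these same arrays and carry no test. Of 269 other miRNAs, 0.372% had an r above 0.9 with miR-26a and 1.86% with miR-26b. miR-29a and miR-29c rose by 0.60 and 0.67 (limma adjusted p = 0.0194 and 0.0116), and miR-29d and miR-132 passed too, although miR-29d was above background on 0 of 4 Holstein-Friesian arrays. miR-1249 fell, with a log2 difference of -0.58 (adjusted p = 0.0224), and it was above background on 2 of 4 Holstein-Friesian and all 4 Limousin arrays. After the GC and length correction the calls of miR-142-5p, miR-376b, miR-29a, miR-29c and miR-1249 were lost (adjusted p = 0.0897, 0.069, 0.123, 0.346 and 0.57). miR-126-3p at 0.20, miR-2474 at -0.32, miR-376e at 0.14, miR-150 at 0.022 and miR-23b-3p at 0.20 did not pass. Relative to the median of all miRNAs tested, miR-1249 and miR-2474 were at -0.51 and -0.25 with and without scaling. Without background subtraction, where the median of all was -0.36, miR-132, miR-150, miR-29d and miR-335 turned to -0.33, -0.34, -0.40 and -0.38. The probes of miR-132, miR-150, miR-1249 and miR-23b-3p have 14 to 16 bases and that of miR-26a 15, while that of miR-29a has 20. The probes of miR-29d and miR-376e have 20 bases and 35% GC, as that of miR-26b has. Those of the others most like miR-26b differ, that of miR-2474 with 14 bases and 57.1% GC.

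Markers of the cell types that udder tissue can hold are given beside these results, and their counts stand against 13.7% higher and 28.1% lower over all miRNAs tested. The 6 epithelial markers, the miR-200 family and miR-205, were all tested and did not pass, with summed scaled signals of 17792 to 19968 in Holstein-Friesian and 18822 to 20644 in Limousin. Of 6 leukocyte markers 4 were tested and 2 were higher, miR-142-5p among them, with sums of 1026 to 1539 against 1477 to 1895, while miR-142-3p and miR-146a were above background on no array. Of 5 fibroblast and contractile cell markers 2 were higher (9036 to 9778 against 9360 to 10957). Both arms of the endothelial miR-126 did not pass (2737 to 3509 against 3180 to 4006). The red cell marker miR-451 (28.9 to 134.7 against 31.1 to 50.4) and the muscle marker miR-1 (20.0 to 34.0 against 18.0 to 46.7) did not pass either. Other red cell, skeletal muscle, liver and neural markers were not tested, and miR-144, miR-486, miR-206, miR-122, miR-124a and both arms of miR-9 were above background on no array. The array annotation puts the adipocyte marker miR-378 on the probes of miR-378b, an entry looked up after its values were seen. miR-378b read 7.16, 7.21, 6.74 and 6.83 in Holstein-Friesian replicates 1 to 4 and 6.03, 6.10, 6.38 and 6.33 in the Limousin ones, with no overlap. Of all miRNAs tested, 36.7% had no overlap between the breeds, in either direction. miR-378b was lower in Limousin by the test, at -0.78 (limma adjusted p = 0.00363), and so it was with quantile, median and cyclic loess scaling and with the percentile over all probes (-0.70 to -0.45). Without scaling it was at 0.077, below the median of 0.78 there. For miR-378b the alternatives of background, GC and length correction and leaving out arrays were not read. The markers miR-141, miR-200b and miR-200c, are also in the list of BMI1 and SUZ12 repressors, and miR-144, miR-124a and miR-214 in that of EZH2 repressors. The part of the leukocyte, stromal and adipocyte markers in the miR-101 result was not tested.

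Other miRNAs reported to repress EZH2 had calls both ways in the fit as reported, though no lower call stayed under some alternatives, given below. Whether their counts differ from the background was not tested. Of 19 listed, miR-124b shares its probes with miR-124a, and 13 of the 18 entries were tested; 3 were higher, 2 lower and 8 did not pass, against 13.7% higher and 28.1% lower over all miRNAs tested. The median log2 difference of the 13 was 0.20, against -0.069 over the 270. The let-7 miRNAs share one seed and act in the timing of development. Of them, let-7i rose by 0.70 and let-7e by 0.38 (limma adjusted p = 0.00434 and 0.0208). The other let-7 members, let-7g at 0.35, let-7f at 0.29, miR-98 at 0.26, let-7a-5p at 0.20, let-7c at 0.16, let-7b at 0.12 and let-7d at 0.089, did not pass. miR-25 rose by 0.33 (adjusted p = 0.0403). Lower in Limousin were miR-30d, at -0.54, and miR-139, at -0.42 (adjusted p = 0.00697 and 0.0156). miR-214, at 0.0048, did not pass, and miR-138, miR-124a, miR-137, miR-217 and miR-144 were above background on no array.

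Relative to the median of all miRNAs tested, miR-30d and miR-139 were at -0.47 and -0.35 with and without scaling. Their own differences without scaling were 0.31 and 0.44, under the shifted median of 0.78, and neither passed (limma adjusted p = 0.346 and 0.178), nor after the GC and length correction (-0.17 and -0.072; adjusted p = 0.322 and 0.622). The count of 5 became 11, all higher, without scaling or with the percentile over all probes. It was 2 without Holstein-Friesian replicate 4, 2 without Limousin replicate 1, 3 without Limousin replicate 4 and 7 without Holstein-Friesian replicate 2. Among these 13 the call of let-7i held in 25 of 25 alternatives, as that of miR-101 did, while those of let-7e, miR-25, miR-30d and miR-139 were lost in 5, 12, 5 and 12.

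Of 10 miRNAs reported to repress BMI1 or SUZ12, 8 were tested; 3 were higher and 5 did not pass, against 13.7% higher and 41.9% called over all miRNAs tested. Their median log2 difference was 0.29, against -0.069 over the 270. Both the count and this median include miR-218, which entered the test through the Limousin arrays alone. With detection required on all 8 arrays, which leaves miR-218 out, 3 of 7 were higher, miR-16a among them (limma adjusted p = 0.049). Over all miRNAs 31 of 232 were then higher. miR-15a and miR-16b, of one seed family, rose by 0.46 and 0.42 (limma adjusted p = 0.0174 and 0.033), and their relative miR-16a was at 0.33 (adjusted p = 0.0519). The calls of miR-15a and miR-16b were lost in 5 and 8 of 25 alternatives. miR-218 passed (adjusted p = 0.00117), but it was above background on all 4 Limousin arrays and on 0 of 4 Holstein-Friesian arrays, so no fold is given, and it turned to -0.36 without background subtraction, where the median of all was also -0.36. A separate older entry for miR-218, looked up after its values were seen, was above background on all 8 arrays, at 5.95 ± 0.19 (SD, n = 4) in Holstein-Friesian and 6.82 ± 0.094 (SD, n = 4) in Limousin. It rose by 0.88 (limma adjusted p = 0.00121) and is not counted in the list. The epithelial miR-141 at 0.24, miR-200b at -0.035 and miR-200c at -0.17, and miR-128 at -0.026, did not pass. The signs of miR-128, miR-200b and miR-200c differ between scalings. miR-200c passed as lower with quantile scaling (-0.25; limma adjusted p = 0.0281), cyclic loess (-0.32; 0.0248) and array weights (-0.23; 0.0367), and as higher without scaling (0.68; 0.033). The count was 5 without Holstein-Friesian replicate 2 and 1 without Holstein-Friesian replicate 4, Limousin replicate 1 or Limousin replicate 4. miR-183 was above background on no array.

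**Figure D4:**
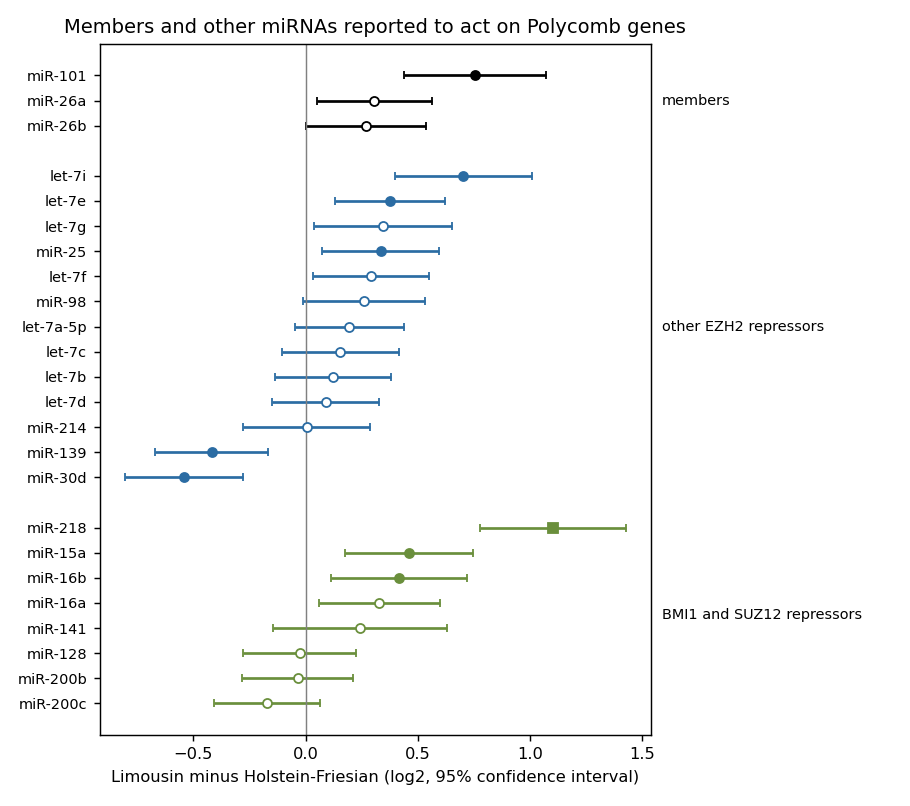
Log2 difference between breeds with its 95% confidence interval for the 3 members (black), the 13 tested other miRNAs reported to repress EZH2 (blue) and the 8 tested miRNAs reported to repress BMI1 or SUZ12 (green); filled points have an adjusted p under 0.05, and the square marks miR-218, above background on 0 of 4 Holstein-Friesian arrays. miR-101 at 0.76 and let-7i at 0.70 lie to the right of the other EZH2 repressors, and miR-139 and miR-30d lie below 0.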

How the data were processed

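Per the file headers, the authors' scanner files were made with Agilent Feature Extraction 10.10.1.1. The deposited spot intensity was already background-subtracted and spatially detrended, with no scaling between arrays. The deposited value table holds log2 values, read from the values as the logarithm of the summed signal of each miRNA minus a constant per array, to within 9.7e-06; column medians ran from -9.79 to -8.53. It served as an alternative.

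Each probe was averaged over its 15 to 30 spots, without control or outlier spots. It was detected where over 50% of its spots were well above background. Arrays were scaled to the 75th percentile over probes detected on all 8 arrays, floored at 1 and taken to log2, with each miRNA represented by its probe of highest mean. The 270 miRNAs detected on all 4 arrays of a breed were fitted with limma 3.58.1 (R 4.3.3), on breed alone, with p-values adjusted by Benjamini-Hochberg and called under 0.05. Pairs of members were compared by exact permutation over arrays. List names were matched to the main name of each array entry. The fit was tested on simulated data. No RefSeq mature sequences were used here, so a rule to name other miRNAs of like seed was not applied.

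The members and lists were chosen with earlier results of these data known. The miRNAs named are the members, the tested miRNAs of the 2 lists of Polycomb repressors, the 5 most like each member and their neighbours in rank. Samples of a breed are biological replicates per the labels. Alternatives covered scaling, background, probe summary, detection filter, floor, the value table, variance model, array weights, GC content and length, the replicate block and leaving out each array.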

Additional observations from a re-analysis of the deposited data

Results flagged for a closer look

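miR-374a, whose difference ranks next above that of miR-26a, had 1 Holstein-Friesian array, replicate 3 at a scaled log2 signal of 9.65, far from the other 3, which lay from 9.24 to 9.27: the gap between it and its nearest neighbour was 0.926 of the whole range of the group, above Dixon's critical value for 4 samples. Chance gives such a gap in about 1 of 20 groups, and this was 1 of 106 groups tested, so that fewer gaps were found than chance gives.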

How the results depend on the processing

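The positive difference of miR-101 passed in all 25 alternatives, the replicate block among them (0.76). The cause of each change given here was not tested. The miR-26a difference passed at 1.16 without scaling, 0.64 with the percentile over all probes, 0.44 with quantile and 0.39 with median scaling, 0.58 in the value table, 0.35 with normexp and 0.35 with no background subtraction, and 0.28 with array weights, and at 0.60 after the GC and length correction. That of miR-26b passed at 1.12, 0.60 and 0.34 under the first 3 of these, 0.53 in the value table, 0.31 with normexp, 0.30 with no background subtraction and 0.27 with array weights. Single miR-26 probes passed too: without scaling miR-26a 14-base probe at 1.14, miR-26a 15-base probe at 1.16, miR-26b 19-base probe at 1.09 and miR-26b 20-base probe at 1.12, with the percentile over all probes miR-26a 14-base probe at 0.61, miR-26a 15-base probe at 0.64, miR-26b 19-base probe at 0.57 and miR-26b 20-base probe at 0.60, with quantile scaling miR-26a 15-base probe at 0.44 and miR-26b 20-base probe at 0.34, with median scaling miR-26a 14-base probe at 0.37 and miR-26a 15-base probe at 0.39, with normexp miR-26a 14-base probe at 0.32, miR-26a 15-base probe at 0.35 and miR-26b 20-base probe at 0.31, with no background subtraction miR-26a 14-base probe at 0.32, miR-26a 15-base probe at 0.35 and miR-26b 20-base probe at 0.30, with array weights miR-26a 14-base probe at 0.28, miR-26a 15-base probe at 0.28, miR-26b 19-base probe at 0.26 and miR-26b 20-base probe at 0.28. After the GC and length correction, with or without the block, miR-26a 14-base probe at 0.58, miR-26a 15-base probe at 0.49, miR-26b 19-base probe at -0.016 and miR-26b 20-base probe at -0.036 were found, so that both miR-26b probes turned. The contrast of miR-101 with miR-26a was 0.34 with normexp, 0.36 with no background subtraction and 0.45 with the mean of probes, that with miR-26b 0.39, 0.41 and 0.49, and these missed the threshold. The GC and length correction turned miR-101 against miR-26a to -0.10 and made miR-26a against miR-26b pass at 0.59, which cyclic loess turned to -0.031. Within-breed r of miR-101 and miR-26b passed at 0.97 without scaling, 0.92 with the percentile over all probes and 0.87 with median scaling. That of miR-26a with miR-101 and with miR-26b passed at 0.91 and 0.95 without scaling and turned to -0.40 and -0.34 with cyclic loess.

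Of all tested miRNAs 175 passed without scaling, 172 with normexp, 170 with no background subtraction and 61 with the block and the GC correction. The count of other EZH2 repressors was 11, 11 and 10 without scaling, with the percentile over all probes and in the value table, and 3 and 3 with cyclic loess and the mean of probes. That of BMI1 and SUZ12 repressors was 8 without scaling and 5 with the percentile over all probes, all higher. It was also 5 with quantile scaling, no background subtraction and array weights, of which 1, 2 and 1 were lower. Samples of the 2 breeds share only a replicate number: deviations of same-numbered arrays correlated at -0.31, -0.25, -0.45 and 0.32, and 2 of 8 arrays correlated best with their own number. With the replicate block 84 miRNAs passed, 2 other EZH2 and 1 BMI1 and SUZ12 repressors among them. These list counts were the same with the block and the GC correction. With the block alone the calls of the 3 members were as reported (limma adjusted p = 0.0155 for miR-101, 0.142 for miR-26a and 0.221 for miR-26b). Block and correction together made miR-26a pass, at 0.60 (limma adjusted p = 0.0171). The pair contrasts were not run with the block, since 16 sign changes of 4 differences cannot pass. The co-variation was not run with the block either, and the probes of a miRNA are not separate in the value table. Named miRNAs that turned sign were let-7a-5p at -0.060, let-7d at -0.038, let-7f at -0.071, miR-1 at -0.12, miR-200b at 0.059, miR-200c at 0.15, miR-2474 at 0.12, miR-374a at -0.18, miR-376e at -0.11 and miR-98 at -0.10 after the GC and length correction, with or without the block. With normexp they were miR-1 at -0.43, miR-132 at -0.38, miR-150 at -0.38, miR-1940 at -0.47, miR-200b at 0.011, miR-214 at -0.061, miR-218 at -0.40, miR-29d at -0.44, miR-335 at -0.43 and miR-376e at -0.0046, and with no background subtraction miR-1 at -0.40, miR-132 at -0.33, miR-150 at -0.34, miR-1940 at -0.42, miR-200b at 0.0040, miR-214 at -0.048, miR-218 at -0.36, miR-29d at -0.40 and miR-335 at -0.38. Without scaling they were miR-1249 at 0.28, miR-128 at 0.83, miR-139 at 0.44, miR-200b at 0.82, miR-200c at 0.68, miR-2474 at 0.53 and miR-30d at 0.31, with the percentile over all probes miR-128 at 0.30, miR-200b at 0.29, miR-200c at 0.16 and miR-2474 at 0.0091, with quantile scaling miR-128 at 0.17 and miR-200b at 0.23, with median scaling miR-128 at 0.055 and miR-200b at 0.046, with cyclic loess let-7a-5p at -0.058, let-7b at -0.11, let-7c at -0.052, let-7d at -0.0064 and miR-128 at 0.17 and in the value table miR-128 at 0.21, miR-200b at 0.25 and miR-200c at 0.077. With array weights they were miR-128 at 0.028, miR-150 at -0.12, miR-200b at 0.0019 and miR-214 at -0.024, and with a floor set to the lowest detected probe miR-218 at -0.20, miR-29d at -0.22 and miR-335 at -0.050. Leaving out 1 array at a time, the difference of miR-101 against miR-26a ran from 0.35 to 0.52, miR-101 against miR-26b from 0.42 to 0.53, miR-26a against miR-26b from -0.020 to 0.10, miR-26a from 0.24 to 0.37, the miR-26a 14-base probe from 0.23 to 0.35, the miR-26a 15-base probe from 0.24 to 0.37, r of miR-101 and miR-26a from -0.38 to 0.72, the count of miRNAs from 71 to 150, that of other EZH2 repressors from 2 to 7, that of BMI1 and SUZ12 repressors from 1 to 5, miR-128 from -0.093 to 0.019, miR-150 from -0.11 to 0.10, miR-200b from -0.071 to 0.019 and miR-214 from -0.072 to 0.074. miR-26a passed without Holstein-Friesian replicate 3 only.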
